A study of Mus musculus with 15 samples.

Results

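The comparison set NRL signal in the retina of C57BL/6J mice at postnatal day 28 (P28) against that at postnatal day 2 (P2). Its members were all 8996 peaks of the deposited quantitation table, none left out, in 2 libraries per age, replicates 3 and 4 of each. These are 4 of the 8 libraries in the table and of the 15 that the labels list. Each library came from 250000 dissociated cells of retina probed with an anti-NRL antibody, and the labels give no genotype beyond the strain and no treatment. Age is the only difference that the labels name between the groups, and they do not give the day or batch of processing. The labels do not say how many animals stood behind a library or whether replicates came from separate animals, so p-values measure the spread between these libraries, which may be technical.

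NRL is a Maf-family basic leucine zipper protein that directs photoreceptor precursors to the rod fate and stays on in mature rods, where it acts together with the homeobox factor CRX at the genes of phototransduction. CUT&RUN, the assay used, tethers a nuclease to the antibody and releases DNA next to the bound protein. P2 falls within rod genesis in the mouse, when the retina still holds dividing progenitors, and at P28 the rods are mature and make up most of the cells. In whole tissue, fewer cells with bound NRL and less NRL bound per cell cannot be told apart.

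The sequences of 5 promoters with a peak are shown first, to let the sequence under the values be seen. They are the 250 bases before a start site in RefSeq (GRCm38.p6), 5' to 3' on the strand of the gene. Capitals mark matches, on either strand, to TGCTGA (the core of the Maf recognition element with its flank), TGANTCA (the AP-1 site), TGACGTCA (the cAMP response element), TAATCC (the core bound by CRX and OTX2) and GGGCGG (the GC box). A run of TGCTGA with NTCA after it would match both of the first motifs. Osbp2 and Ddx31 had higher signal at P28 and are the peaks named below whose own promoter window overlapped them by 100 bases or more. Zc3h12c and Prss29 were chosen after their values were seen, as the only genes with a lower peak on such a window. Pde6b is a rod gene for reference.
Osbp2, chr11:3722228-3722477, minus strand: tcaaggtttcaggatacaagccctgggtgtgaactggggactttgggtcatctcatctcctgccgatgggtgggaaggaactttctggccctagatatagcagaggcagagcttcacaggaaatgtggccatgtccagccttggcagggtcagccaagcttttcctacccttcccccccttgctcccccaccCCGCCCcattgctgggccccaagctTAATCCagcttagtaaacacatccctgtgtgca
Ddx31, chr2:28840156-28840405, plus strand: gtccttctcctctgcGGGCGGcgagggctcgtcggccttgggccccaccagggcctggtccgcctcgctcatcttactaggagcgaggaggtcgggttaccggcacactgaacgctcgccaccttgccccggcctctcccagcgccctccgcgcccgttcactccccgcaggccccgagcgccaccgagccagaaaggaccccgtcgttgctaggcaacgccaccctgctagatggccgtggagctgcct
Zc3h12c, chr9:52149364-52149613, minus strand: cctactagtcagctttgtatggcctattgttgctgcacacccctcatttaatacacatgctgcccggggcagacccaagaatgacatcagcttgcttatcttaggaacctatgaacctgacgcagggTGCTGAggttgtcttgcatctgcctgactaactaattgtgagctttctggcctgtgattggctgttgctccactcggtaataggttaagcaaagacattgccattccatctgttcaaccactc
Prss29, chr17:25318404-25318653, plus strand: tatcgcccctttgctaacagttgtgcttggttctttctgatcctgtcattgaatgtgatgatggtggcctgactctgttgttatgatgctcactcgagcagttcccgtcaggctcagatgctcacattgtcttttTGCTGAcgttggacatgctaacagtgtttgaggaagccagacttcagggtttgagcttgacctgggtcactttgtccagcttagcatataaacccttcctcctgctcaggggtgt
Pde6b, chr5:108388123-108388372, plus strand: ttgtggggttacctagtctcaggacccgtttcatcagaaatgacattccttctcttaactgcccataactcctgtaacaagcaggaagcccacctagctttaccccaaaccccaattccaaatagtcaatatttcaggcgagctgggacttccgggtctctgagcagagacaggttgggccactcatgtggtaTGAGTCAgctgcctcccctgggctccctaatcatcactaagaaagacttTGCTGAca

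The promoter of Osbp2, an oxysterol-binding protein, held 1 match to the CRX core and 1 GC box, and that of the RNA helicase gene Ddx31 held 1 GC box and 25 CpG dinucleotides. The windows of Zc3h12c and Prss29 each held 1 TGCTGA, and the Pde6b window held 1 TGCTGA and 1 AP-1 site. Over the 226 windows under a higher peak, TGCTGA was found in 19.0%, against 16.9% of the 3278 windows under any NRL peak and 19.5% of all 32817 RefSeq windows of 300 bases. TAATCC was found in 10.6, 7.05 and 7.06% of the same windows. TGANTCA was found in 3.98, 4.15 and 7.81%, TGACGTCA in 3.54, 5.25 and 1.79%, GGGCGG in 64.2, 71.5 and 35.6%, and the E-box CANNTG in 60.2, 59.9 and 72.3%. A match is a description of the letters and does not mark a bound site.

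The libraries held 78255 and 49430 reads inside peaks at P2 and 98186 and 92360 at P28, with medians of 6, 4, 8 and 7 reads per peak. Peaks took up 0.986 and 0.940% of the library scale at P2, compared with 1.52 and 1.51% at P28. Log2 values correlated across peaks with Pearson r of 0.60 between the P2 libraries, 0.71 between the P28 libraries and 0.24 to 0.28 between the ages. Peaks are not independent replicates. Both pairs differed by more than counting noise (chi-square per degree of freedom 1.57 at P2 and 1.16 at P28), so none was merged. Signal is given as RPKM, reads per kilobase of peak scaled to library size, and 3 reads in a peak of median width were worth 1.17 RPKM in P2 replicate 3 and 1.77 in P2 replicate 4. Intervals given for read ratios cover counting error only.

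On the deposited scale most peaks that changed had gained signal at P28. Of the 8996 peaks, 1137 (12.6%) passed limma at an adjusted p under 0.05, 867 higher (9.64%) and 270 lower (3.0%), and 76.3% of the calls were higher. The median peak itself was higher at P28 by 0.57 on the log2(RPKM + 1) scale. When each library was centred on its own median, 947 peaks passed (10.5%), of which 294 were higher (3.27%) and 653 lower (7.26%), so that 31.0% of the calls were higher. All 270 peaks called lower on the deposited scale were also called lower after centring, and 294 of the 867 higher peaks remained higher. Centring moved every difference down by the same amount, which favours lower calls and works against higher ones. It also changed the standard errors, from 0.580 to 0.439 at the Stra6 peak and from 0.510 to 0.524 at the Glt1d1 peak. These 2 counts therefore do not show that lower calls are the more robust. Differences below are on the deposited scale unless centring is named. They are log2 differences of P28 minus P2, each from 2 libraries per age, with the standard error of the limma fit. That error draws on the spread in all 8 libraries of the table.

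Both lower and higher calls were more frequent beyond 1 kb from a start site, and lower calls more strongly so. Of the 5106 peaks at most 1 kb from the nearest transcription start, called promoter peaks here, 20 were lower (0.392%), while 400 were higher (7.83%). Of the 562 peaks between 1 and 3 kb, 18 were lower (3.2%) and 78 higher (13.9%). Of the 3328 peaks over 3 kb away, called distal, 232 were lower (6.97%) and 389 higher (11.7%). Distal peaks thus made up 85.9% of the lower calls and 44.9% of the higher calls, against 37.0% of all peaks. After centring, 101 promoter peaks (1.98%), 58 intermediate peaks (10.3%) and 494 distal peaks (14.8%) were lower, and 85 (1.66%), 42 (7.47%) and 167 (5.02%) were higher.

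The share of lower peaks was larger in each bin farther from a start site. It was 0.170% among the 4118 peaks that overlapped one, 5.44% from 3 to 10 kb, 10.8% from 50 to 100 kb and 12.3% of the 381 peaks beyond 100 kb. The share of higher peaks was 13.9% at 1 to 3 kb and 6.04% beyond 100 kb. The median log2 difference of a bin went from 0.68 for peaks on a start site to -0.23 for those beyond 100 kb. After centring, 1.26% of the peaks on a start site and 26.0% of the farthest peaks were lower. Median signal over the P2 and P28 libraries was lower in the far bins, 3.28 RPKM on a start site and 2.46 beyond 100 kb, and its part in these shares was not tested.

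**Figure D1:**
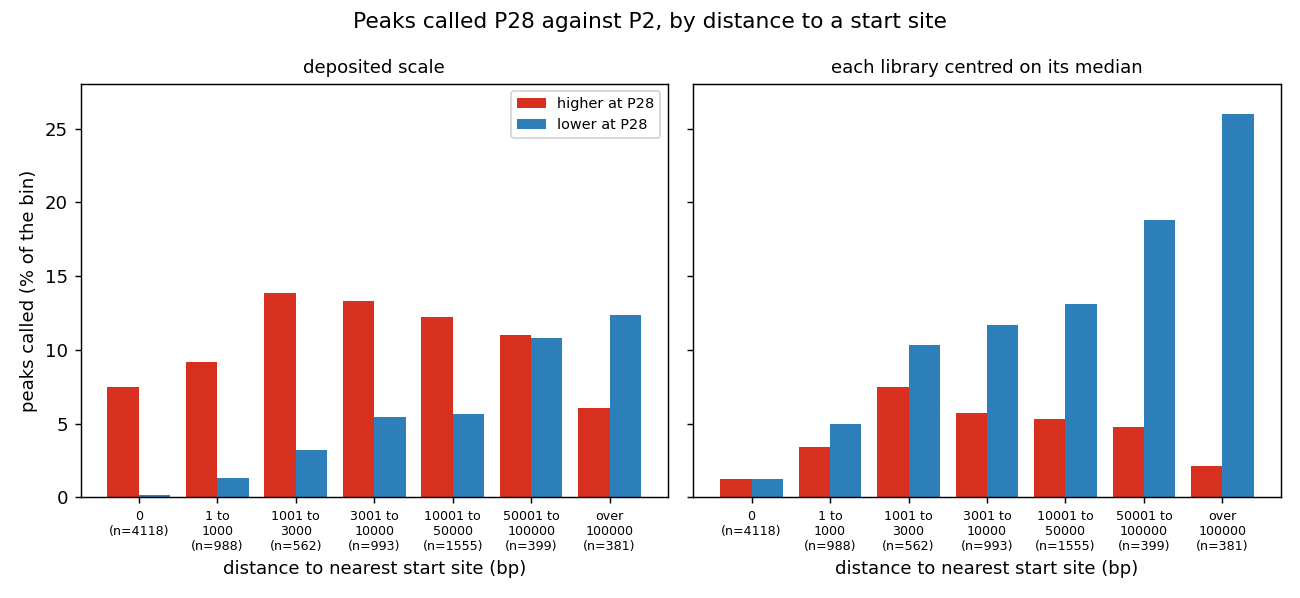
Share of the peaks of each distance bin (y axis, percent) that were called higher (red) or lower (blue) at P28 than at P2, by distance to the nearest start site (x axis, bp, with the number of peaks), on the deposited scale (left) and after median centring of every library (right). The lower share is 0.170% on a start site and 12.3% in the farthest bin on the deposited scale, and 1.26 and 26.0% after centring.

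Each library gave 1 value for this contrast, the median log2(RPKM + 1) of distal peaks minus that of promoter peaks. The value was -0.180 and 0.027 in the P2 libraries and -0.481 and -0.391 in the P28 libraries. Both P28 libraries lay below both P2 libraries, and the difference of the means was -0.36 (SD 0.146 at P2 and 0.0634 at P28, n = 2 each). An exact two-sided permutation test of 2 libraries against 2 cannot give less than p = 0.333, and gave that. The same value was 0.033 and 0.132 at P4 and 0.333 and 0.303 at P10, so that distal peaks stood above promoter peaks at P10 and below them at P28. Distal peaks took 28.3 and 35.0% of the reads in peaks at P2 and 25.3 and 27.9% at P28.

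The 232 lower distal peaks, chosen for low signal at P28 against P2, lost most of their signal by P28. Their median log2 difference was -2.11, with a range from -4.08 to -1.35, and the median peak held 24 reads over the P2 libraries and 3 over the P28 libraries. At P28, 27 of them held 0 reads and 140 held at most 3. By the authors' annotation 119 lay in introns, 94 between genes and 11 in exons, and their median distance to a start site was 28088 bp. Of the 232, 90 (38.8%) lay over 50 kb away, against 23.4% of all distal peaks. Their median width was 248.5 bp, that of all distal peaks 253 bp. Promoter windows of RefSeq overlapped 4 of them by 100 bases or more (1.72%) and 52 of all distal peaks (1.56%).

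At the ages between, the lower distal peaks were still occupied at P4 and had mixed levels at P10. Their median signal was 6.41 and 7.53 RPKM at P2, 6.07 and 10.6 at P4, then 3.89 and 3.07 at P10, and 0.859 and 0.844 at P28. By mean signal, 87 of the 232 were highest at P2, 107 at P4 and 38 at P10. In 77 (33.2%) the P10 mean was above the P2 mean, and in 109 (47.0%) it was already under 50% of it. In the authors' peak lists, 149 (64.2%) were called at P2 and 159 (68.5%) at P4, but 96 (41.4%) at P10 and only 4 (1.72%) at P28. Among all distal peaks the shares in these lists were 12.3, 31.7, 80.8 and 22.4%. Because the 232 were called for P28 signal below P2, their levels and list shares at P2 and P28 follow from the choice.

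The 12 lower distal peaks named by rule had the lowest log2 differences among those of at least median signal, with libraries of the 2 ages that did not overlap and a protein-coding nearest gene outside the rod lists. The lowest lay 10334 bp upstream of Stra6 (chr9:58053264-58053454), which encodes the membrane receptor through which cells take up retinol from its carrier protein. It had 19.8 and 23.9 RPKM at P2, 17.3 and 43.4 at P4, then 14.0 and 6.53 at P10, and 0.811 and 0 at P28. Both P28 libraries lay far below every younger one. The log2 difference was -4.08 ± 0.58 (adjusted p = 0.00012), and the ratio of scaled reads was 51.4 in favour of P2 (95% interval 8.84 to 2068, from 54 reads against 1).

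A second named peak on the same chromosome, 102063 bp from that of Stra6, also fell. It lay 2795 bp from the start of Islr (chr9:58155518-58155750), which encodes a secreted protein with an immunoglobulin domain and leucine-rich repeats. Its signal was 21.1 and 31.0 RPKM at P2, 11.5 and 11.2 at P10 and 0.665 and 2.11 at P28, a log2 difference of -3.55 ± 0.56 (adjusted p = 0.00028). Being within 3 kb of a start site, it is not counted among the distal peaks.

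In a pair of neighbouring peaks 141766 and 142551 bp from Tbx4, the gene of a T-box factor of limb and lung development, both members fell. The peaks were 491 bp apart, and the nearest gene need not be the one that a distal site serves. The first (chr11:86038531-86038825) had 23.5 and 25.2 RPKM at P2, 17.1 and 16.1 at P10 and 2.10 and 0.555 at P28, with a log2 difference of -3.53 ± 0.57 (adjusted p = 0.00033). The second (chr11:86039316-86039615) had 12.2 and 10.8 RPKM at P2 but only 1.58 and 1.25 at P10, and 0.516 and 0.546 at P28 (log2 difference -3.02 ± 0.46, adjusted p = 0.00020). Of these adjacent sites the second was thus already low at P10 and the first was not.

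The peaks of Sox6 and Glt1d1 were low from P10 on, and those of Rhobtb1 and Gfra1 were high until P10. The peak 6270 bp from Sox6, a SoxD transcription factor gene, had 20.8 and 12.1 RPKM at P2, 7.15 and 8.55 at P4, then 1.11 and 0.439 at P10 and 0.545 and 1.15 at P28 (log2 difference -3.21 ± 0.48, adjusted p = 0.00019). At Glt1d1, which encodes a glycosyltransferase-like protein, the peak had 14.2 and 23.8 RPKM at P2, 0.938 and 2.23 at P10 and 0 and 0.975 at P28 (-3.79 ± 0.51, adjusted p = 8.9e-05). Both peaks were at or below 2.23 RPKM in every P10 and P28 library.

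At Rhobtb1, an atypical GTPase gene, the peak (chr10:69110654-69110784) had 23.1 and 52.3 RPKM at P2, 54.1 and 29.5 at P10 and 3.55 and 1.25 at P28 (-3.49 ± 0.60, adjusted p = 0.00061). At Gfra1, which encodes the co-receptor of the neurotrophic factor GDNF, the intronic peak had 23.9 and 38.2 RPKM at P2, 58.6 and 51.9 at P10 and 0.576 and 6.09 at P28 (-3.22 ± 0.66, adjusted p = 0.0034). The P28 replicates of Gfra1 were far apart, and without P28 replicate 3 its call was lost (adjusted p = 0.083). The other 11 named distal peaks kept their calls when any 1 of the P2 and P28 libraries was left out.

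The remaining named distal peaks belonged to genes of varied function. The peak of Slc6a17, a neuronal vesicular transporter of neutral amino acids, had 8.67 and 19.3 RPKM at P2, 22.1 and 35.8 at P4, then 1.28 and 2.53 at P10 and 0.627 and 0 at P28 (-3.46 ± 0.54, adjusted p = 0.00028). At Srgap2, a Slit-Robo GTPase-activating protein gene, P2 had 10.8 and 15.3 RPKM, P10 13.6 and 10.7, and P28 0.833 and 0 (-3.36 ± 0.55, adjusted p = 0.00040). At Macroh2a1, a histone variant gene, P2 had 15.1 and 20.8 RPKM, P10 6.57 and 8.45, and P28 0.807 and 0.853 (-3.36 ± 0.56, adjusted p = 0.00044). The log2 differences of the peaks at Zdhhc25 (a palmitoyltransferase-family gene), Msr1 (a macrophage scavenger receptor) and Lpcat2 (a lysophospholipid acyltransferase) were -3.49, -3.26 and -3.23. At Msr1 no read was found at P28, against 14 reads at P2, which made the P2 signal at least 4.44-fold higher with the limit set by 3 reads over the P28 libraries.

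**Figure D2:**
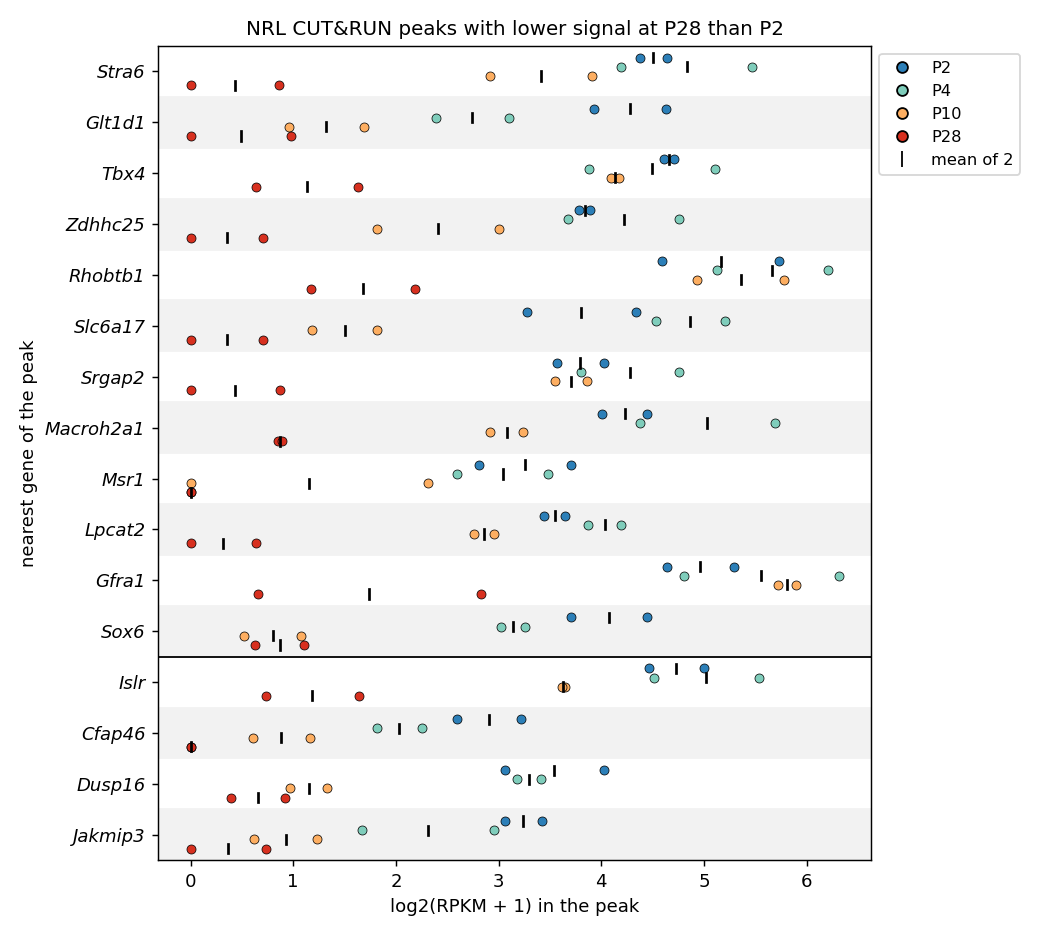
Signal as log2(RPKM + 1) (x axis) in each of 8 libraries at the 12 named lower distal peaks (above the line) and the 4 named lower peaks within 3 kb of a start site (below it), with 1 row per nearest gene, 1 point per library coloured by age and a bar at the mean of 2. In each row both P28 points lie below both P2 points, as the naming rule required. P10 points lie near P28 in Sox6 and near P2 in Gfra1.

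Near start sites few peaks fell. The 4 named ones were Islr, given above, Cfap46, Dusp16 and Jakmip3. At the promoter of Dusp16, a phosphatase of stress-activated MAP kinases, the peak (chr6:134760919-134761437) had 15.3 and 7.33 RPKM at P2, 8.07 and 9.63 at P4, then 1.52 and 0.962 at P10 and 0.895 and 0.315 at P28 (-2.88 ± 0.49, adjusted p = 0.00051). It was low at both later ages. At Cfap46, which encodes a protein of the ciliary axoneme, 28 reads at P2 stood against 0 at P28, at least an 8.89-fold higher signal at P2 (log2 difference -2.90 ± 0.46, adjusted p = 0.00028). The difference at Jakmip3 was -2.87 ± 0.50 (adjusted p = 0.00064). At Prss29, a serine protease gene shown above, the values were 4.73 and 4.47 RPKM at P2 and 2.18 and 0 at P28 (-1.65 ± 0.54, adjusted p = 0.045), a call lost without P28 replicate 4 (adjusted p = 0.46) or either P2 replicate (0.075 and 0.095). The Zc3h12c peak, counted among the distal peaks because the authors' annotation puts it 18525 bp from the start, overlaps a RefSeq window of that gene. Its values were 10.6 and 4.45 RPKM at P2 and 0 in both libraries at P28 (-2.99 ± 0.50, adjusted p = 0.00051).

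Most promoter peaks of the genes next to lower distal peaks were not called. The 232 peaks had 221 nearest genes, of which 37 also had a promoter peak in the table, 39 peaks in all. Of these 1 was higher (2.56%, against 7.83% of all promoter peaks), 1 lower (2.56%, against 0.392%) and 37 were not called. Their median log2 difference was 0.60, that of all promoter peaks 0.65. Whether the distal and promoter peaks of a gene differed was not tested gene by gene.

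Some lower peaks had another lower peak nearby. Of 250 neighbouring pairs of lower peaks on a chromosome, 15 (6.0%) were within 100 kb, against 131 of 847 such pairs of higher peaks (15.5%) and 4978 of 8976 pairs of all peaks (55.5%), sets that lie more densely. Besides Tbx4, 2 lower peaks lay 188686 and 205470 bp from Cd180, a Toll-like receptor family member of B cells. One (chr13:102504560-102504872) had 15.3 and 21.9 RPKM at P2, 21.1 and 63.4 at P4, then 17.6 and 20.7 at P10 and 0.990 and 1.57 at P28 (-3.09 ± 0.57, adjusted p = 0.0011). Its neighbour (chr13:102487791-102488088) had 16.1 and 24.9 RPKM at P2 and 1.56 and 2.20 at P28 (-2.88 ± 0.56, adjusted p = 0.0018). At Zfp608, a zinc finger gene, 3 intronic peaks fell, and at Ece1, the gene of the endothelin-converting enzyme, 2 did. Cd180 and Ece1 are named after their values were seen.

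In 11 of the 6860 genes with a peak, a higher and a lower peak were both called. A higher peak was called at 788 genes and a lower one at 258. Whether the 11 differ from the overlap of unrelated calls was not tested. At Chst3, a chondroitin sulfotransferase gene, the promoter peak had 5.90 and 6.69 RPKM at P2 and 24.8 and 24.3 at P28 (1.81 ± 0.59, adjusted p = 0.043). The peak 1085 bp away from the start had 5.80 and 7.89 RPKM at P2 and 1.43 and 2.26 at P28 (-1.47 ± 0.49, adjusted p = 0.049). After centring, the higher call was lost at Chst3 (adjusted p = 0.078). Both calls of Chst3 were lost without any 1 of the 4 libraries (adjusted p 0.065 to 0.28). The gene is an example chosen after its values were seen.

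Of the 110 peaks whose nearest gene is in the rod or photoreceptor factor lists, 2 were lower (1.82%), near the 3.0% of all peaks, and 46 higher (41.8%). One of the lower peaks lay 3638 bp from Cdhr1, a cadherin gene of outer segment discs, with 3.31 and 10.0 RPKM at P2, 14.5 and 17.2 at P10 and 0 in both libraries at P28 (-2.79 ± 0.56, adjusted p = 0.0023). The other lay 52645 bp from Otx2, the gene of a homeobox factor needed for photoreceptor and bipolar cell fates. It had 11.3 and 17.5 RPKM at P2, 6.53 and 8.08 at P10 and 1.40 and 1.91 at P28 (-2.51 ± 0.54, adjusted p = 0.0039). For reference, the promoter peak of Gnat1, the gene of rod transducin, had the opposite direction, with 2.77 and 0.761 RPKM at P2 and 61.6 and 78.6 at P28 (4.78 ± 0.58, adjusted p = 5.5e-05).

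Higher peaks at promoters and at distal sites differed in the age of their maximum, but the sets were chosen for high signal at P28. Of the 389 higher distal peaks, 247 (63.5%) had their highest mean at P10 and 140 (36.0%) at P28. Of the 400 higher promoter peaks, 152 (38.0%) were highest at P10 and 244 (61.0%) at P28. Over all distal peaks these shares were 72.9% at P10 and 8.26% at P28, and over all promoter peaks 67.3 and 25.8%. Median signal of the higher distal peaks was 0.940 and 0.889 RPKM at P2, 8.67 and 7.73 at P10 and 6.68 and 6.36 at P28. Median signal of the higher promoter peaks was 1.28 and 0.849 RPKM at P2, 4.6 in both libraries at P10 and 5.75 and 5.50 at P28. The authors' P28 list held 255 (65.6%) of the higher distal and 285 of the 400 higher promoter peaks, and their P2 list 10 and 11. This order of P10 and P28 was not tested.

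**Figure D3:**
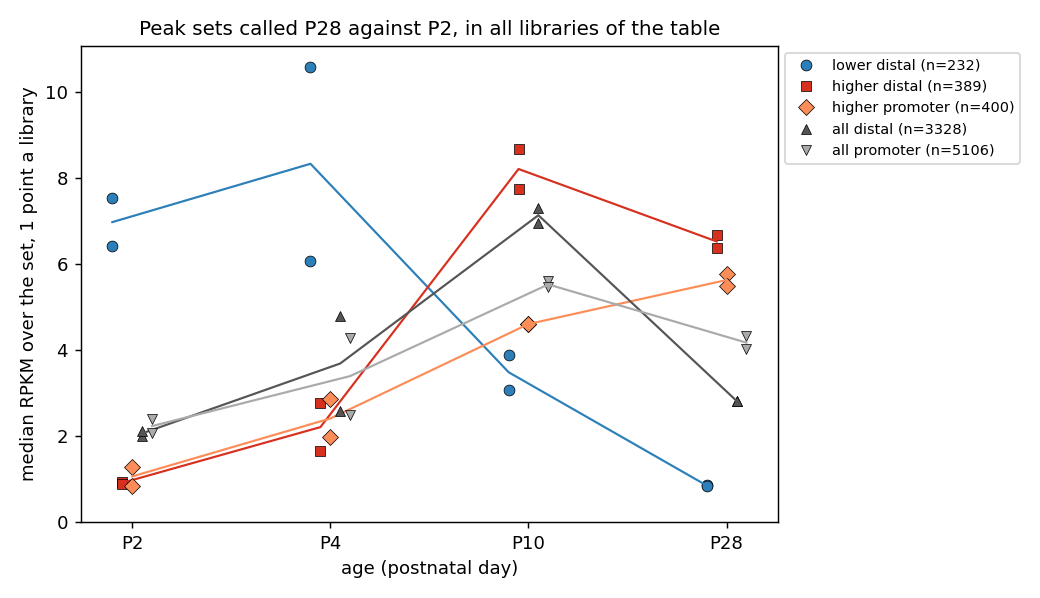
Median RPKM (y axis) over the peaks of a set in each of 8 libraries (points) by age (x axis), with lines through the mean of the 2 libraries, for lower distal, higher distal, higher promoter, all distal and all promoter peaks. Lower distal peaks had medians of 6.41 and 7.53 at P2 and 0.859 and 0.844 at P28, whereas higher promoter peaks were at 5.75 and 5.50 at P28. The sets were called on P2 and P28, so their levels at these ages are fixed by the choice.

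Outside the rod lists, the higher distal peaks named by rule gained signal from near 0. The peak with the largest difference lay in an intron 5060 bp from the start of Stk35, a kinase gene (chr2:129805577-129805873), with 0 and 1.28 RPKM at P2, 15.4 and 6.72 at P10 and 28.2 and 18.7 at P28 (3.99 ± 0.56, adjusted p = 0.00012). At Dpf3, which encodes a subunit of BAF chromatin remodelling complexes, the peak had 1.9 and 2.29 RPKM at P2, 122 and 110 at P10 and 47.1 and 42.4 at P28 (3.89 ± 0.57, adjusted p = 0.00013). At Zbtb38, a zinc finger protein gene that reads methylated DNA, an exonic peak had 1.43 and 1.44 RPKM at P2 and 34.0 and 38.4 at P28 (3.93 ± 0.58, adjusted p = 0.00013). In these 3 peaks both P28 libraries lay above both P2 libraries, as the naming rule required. Dpf3 was lower at P28 than at P10.

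The other 3 were at Calcoco1, an autophagy receptor and coactivator gene, Rabgef1, an exchange factor of the endosomal GTPase Rab5, and Trib2, a pseudokinase gene. Their log2 differences were 3.91 ± 0.57 (adjusted p = 0.00013), 3.82 ± 0.52 (8.9e-05) and 3.75 ± 0.54 (0.00013). At Rabgef1 the values were 0 and 1.01 RPKM at P2 and 18 and 19.9 at P28. All 6 higher distal peaks kept their calls after centring and without any 1 of the P2 and P28 libraries.

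At promoters the largest gain outside the rod lists was at Slc16a1, the gene of the lactate and pyruvate carrier MCT1. Its peak, 691 bp upstream of the start (chr3:104637871-104637977), had no reads in either P2 library, 0 and 1.33 RPKM at P4, then 11.8 and 8.16 at P10 and 10.1 and 12.2 at P28 (log2 difference 3.60 ± 0.48, adjusted p = 8.9e-05). With the limit set by 3 reads over the P2 libraries, P28 was at least 5.25-fold higher. At Glb1l2, a beta-galactosidase-like gene, the peak had 3.22 and 6.25 RPKM at P2, 66.1 and 64.2 at P10 and 42.4 and 48.4 at P28 (3.07 ± 0.58, adjusted p = 0.0015). The promoter peak of Osbp2 had 3.59 and 0.677 RPKM at P2, 37.6 and 44.8 at P10 and 21.5 and 21.6 at P28 (3.02 ± 0.59, adjusted p = 0.0018). These promoters had signal above P2 at P10 already, though the authors' lists held the Slc16a1 peak at P28 only. The other peaks were in the authors' P4 list, with 6.49 and 22.4 RPKM at P4 for Glb1l2 and 6.33 and 17.3 for Osbp2.

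Ddx31 and Wdr70 show the range of paths to P28. The Ddx31 peak, over the GC-rich window shown above, had 0.884 and 0 RPKM at P2, 0.446 and 2.00 at P4, then 1.66 and 3.50 at P10 and 7.61 and 7.47 at P28 (2.64 ± 0.49, adjusted p = 0.0013). The peak near Wdr70, a WD-repeat gene, had 0.633 and 0.956 RPKM at P2, 46.7 and 37.6 at P10 and 10.1 and 9.87 at P28 (2.62 ± 0.58, adjusted p = 0.0046). The others were at Hnrnpl, a splicing regulator (3.11 ± 0.61), Agap3, an Arf GTPase-activating protein (2.97 ± 0.57), Pfdn4, a prefoldin subunit (2.74 ± 0.62), Bicdl1, a dynein adaptor (2.74 ± 0.50), and Pla2g7, a platelet-activating factor hydrolase (2.63 ± 0.51). All 10 named promoter peaks kept their calls after centring and without any 1 of the P2 and P28 libraries.

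**Figure D4:**
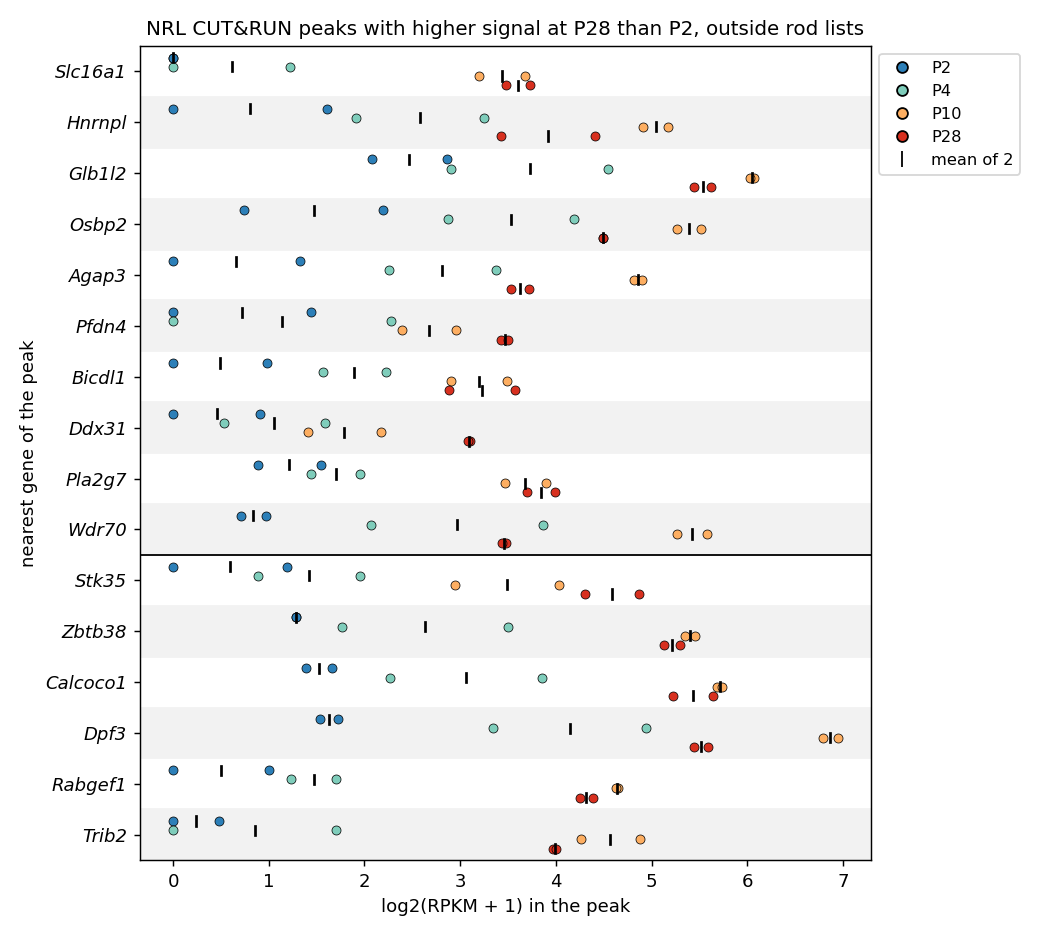
Signal as log2(RPKM + 1) (x axis) in each of 8 libraries at the 10 named higher promoter peaks (above the line) and the 6 named higher distal peaks (below it), with 1 row per nearest gene, 1 point per library coloured by age and a bar at the mean of 2. Both P28 points lie above both P2 points in each row, as the naming rule required. P10 lies above P28 at Wdr70 and Dpf3, and P28 lies above P10 at Ddx31.

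Gene functions were compared with 1 peak per gene, the strongest within 50 kb of its start site. This gave 5978 protein-coding genes, of which 588 were higher (9.84%) and 132 lower (2.21%), with a median log2 difference of 0.63. After centring 196 were higher (3.28%) and 327 lower (5.47%). The rod list stood far from this background, with 18 of 32 genes higher, none lower and a median of 1.76, and 11 higher and none lower after centring. The nearest start site names a peak's gene, and 25 of the 821 higher peaks of genes outside the rod and photoreceptor factor lists (3.05%) lay within 100 kb of a gene of those lists, against none of 268 lower peaks and 1.62% of all such peaks.

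Several genes of energy metabolism had higher peaks. Of 19 glycolysis and lactate genes, 5 were higher (26.3%, against 9.84% of all genes) and none lower, with a median of 1.09. After centring 4 remained higher. Besides Slc16a1 these were Eno1, the enolase gene, Pfkfb2, which sets the level of the activator of phosphofructokinase, Gpi1, glucose phosphate isomerase, and Ldha, lactate dehydrogenase, the call of the last being lost after centring (adjusted p = 0.065). Without single libraries Ldha was lost in all 4 cases (adjusted p 0.086 to 0.21) and Gpi1 without P2 replicate 4 (0.14) or P28 replicate 4 (0.12). The Eno1 peak, 5503 bp upstream, had 2.08 and 0.450 RPKM at P2, 58.9 and 52.5 at P10 and 20.9 and 17.4 at P28 (3.25 ± 0.56, adjusted p = 0.00064). The Pfkfb2 peak had 1.59 and 0 RPKM at P2 and 12.7 and 11.4 at P28 (3.02 ± 0.55, adjusted p = 0.0011). The promoter peak of Gapdh was not called, with 3.91 and 3.55 RPKM at P2 and 4.81 and 5.76 at P28.

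Of 51 genes of mitochondrial respiration, 9 were higher (17.6%, against 9.84% of all genes) and none lower, with a median of 0.86. After centring 2 were higher, close to the 3.28% of all genes, and 1 lower. The 2 were Atp5k and Atp5l, subunits of ATP synthase. The Atp5k peak had 1.38 and 2.08 RPKM at P2 and 14.1 and 29.3 at P28 (2.98 ± 0.55, adjusted p = 0.0012), but it lay 1087 bp from the rod gene Pde6b. The Atp5l peak, 21730 bp from its start, had 2.00 and 0.604 RPKM at P2 and 10.8 and 14.6 at P28 (2.63 ± 0.57, adjusted p = 0.0040), and its call was lost without P2 replicate 4 (adjusted p = 0.057). Mitochondrial import had 3 of 18 genes higher with a median of 1.03, of which Timm50 (2.12 ± 0.54, adjusted p = 0.012, lost without P2 replicate 3 or P28 replicate 4, up to 0.14) remained after centring, and mitochondrial ribosomal proteins had 3 of 33 with a median of 0.84. The higher shares were 16.7% for import and 9.09% for mitochondrial ribosomal proteins, the latter below the share of all genes. None of the 51 cytosolic ribosomal protein genes was called in either direction, with a median of 0.62.

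Genes of the rod terminal and cilium also had some higher peaks. Of 20 photoreceptor synapse genes, 5 were higher (25%, against 9.84% of all genes) and none lower (median 0.91), and 2 remained after centring. One was Sv2b, a synaptic vesicle protein, with 3.21 and 4.84 RPKM at P2 and 14.6 and 37.5 at P28 (2.31 ± 0.58, adjusted p = 0.012), and the other Stx3, the syntaxin of ribbon synapses, with 0 and 1.2 RPKM at P2 and 4.87 and 6.18 at P28 (2.13 ± 0.51, adjusted p = 0.0074). Of 38 photoreceptor cilium genes, 6 were higher (15.8%) and none lower (median 0.85). After centring 1 was higher, Arl3, a GTPase that releases lipidated cargo in the cilium (2.02 ± 0.54, adjusted p = 0.016). Among all genes 3.28% were higher after centring, so the cilium list was not above background on that scale. Sv2b was lost without P2 replicate 3 (adjusted p = 0.060) or P28 replicate 4 (0.17), Stx3 without P2 replicate 3 (0.11) and Arl3 without any of the 4 libraries (0.063 to 0.12).

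Some progenitor genes had lower signal at P28. Of 16 retinal progenitor, Notch and neurogenic genes, none was higher, 3 were lower and 13 were not called, with a median of -0.30, and 5 were lower after centring. Mycn, a proto-oncogene of dividing progenitors, had a peak 2393 bp from its start with 7.51 and 9.35 RPKM at P2, 5.35 and 17.5 at P4, then 6.63 and 9.63 at P10 and 1.63 and 1.15 at P28 (-1.98 ± 0.55, adjusted p = 0.021). At Jag1, which encodes a Notch ligand, the values were 1.55 and 1.56 RPKM at P2, 2.58 and 2.05 at P10 and 0 in both libraries at P28 (-1.35 ± 0.45, adjusted p = 0.046). The Jag1 call rested on 5 reads at P2 and 0 at P28, at least a 1.59-fold higher signal at P2 with the limit set by 3 reads. In both peaks at least 1 P10 library was above both P2 libraries.

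Lower after centring alone were Notch1, a Notch receptor, with 4.40 and 4.43 RPKM at P2 and 0.902 and 2.23 at P28 (-1.13 on the deposited scale, adjusted p = 0.15, and 0.014 centred), and Id3, an inhibitor of bHLH factors, with 11.8 and 11.6 at P2 and 5.13 and 4.52 at P28 (-1.13, adjusted p = 0.17, and 0.0099 centred). The progenitor calls were not stable to single libraries on the deposited scale. Mycn was lost without P2 replicate 4 or either P28 replicate (adjusted p up to 0.11), and Jag1 without any of the 4 (0.097 to 0.15). Of the 16 peaks, 7 were at promoters, against 4206 of the 5978 of all genes. The part of place in the count was not tested.

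Adhesion, axon guidance and matrix genes had a median of 0.00, with none of 27 higher and 2 lower, and 6 lower after centring. Lama5, a laminin chain gene, had 7.04 and 8.95 RPKM at P2, 8.81 and 10.3 at P10 and 1.37 and 0.963 at P28 (-2.05 ± 0.55, adjusted p = 0.016). At the promoter of Itgb5, an integrin gene, P2 had 6.11 and 5.32 RPKM, P10 6.17 and 5.82, and P28 0.867 and 1.22 (-1.72 ± 0.49, adjusted p = 0.023). At P10 both peaks had signal above the lower of their P2 values. Lama5 was lost without P2 replicate 4 or either P28 replicate (up to 0.088) and Itgb5 without any of the 4 libraries (0.067 to 0.16). In this list 7 of 27 peaks were at promoters.

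Calls in both directions were found among the bZIP factors, the family to which NRL belongs. Of 29 genes, 3 were higher and 2 lower, with a median of 0.46, and none was higher and 4 lower after centring. At Crebzf, a bZIP corepressor gene, a peak 4063 bp from the start had 10.4 and 13.0 RPKM at P2, 44.3 and 42.7 at P10 and 1.06 and 3.36 at P28 (-2.07 ± 0.59, adjusted p = 0.024). At Cebpa, a C/EBP factor gene, P2 had 6.27 and 7.57 RPKM and P28 0 and 1.63 (-2.28 ± 0.57, adjusted p = 0.011). The higher genes were Cebpg, Dbp and Atf6, of which Dbp, a circadian output factor, had 1.72 and 2.59 RPKM at P2 and 9.86 and 8.93 at P28 (1.73 ± 0.53, adjusted p = 0.033). Dbp was lost without any 1 of the 4 libraries (0.074 to 0.14), Cebpa was lost without P28 replicate 3 (adjusted p = 0.16), and Crebzf without P2 replicate 4 or P28 replicate 3 (up to 0.24).

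Cytoskeletal genes depended on the scale. Of 49, 3 were higher and 1 lower (median 0.45) on the deposited scale, and none was higher and 7 lower after centring. The lower one was Dync1li2, a dynein light intermediate chain gene, with 6.82 and 3.64 RPKM at P2 and 0.493 and 1.56 at P28 (-1.62 ± 0.49, adjusted p = 0.030), a call lost without P2 replicate 3 or P28 replicate 3 (up to 0.22). Signalling genes of the Wnt, BMP, TGF-beta, Hedgehog and FGF pathways had 2 of 28 higher and none lower (median 0.29), among them Fgf2, a growth factor gene (2.18 ± 0.55, adjusted p = 0.012, and 0.13 without P2 replicate 3). Chaperones had 3 of 27 higher, Hsp90aa1, Pfdn1 and Pfdn4, and the same number after centring. Pfdn1 was lost without P2 replicate 3 or P28 replicate 4 (adjusted p up to 0.12). The Hsp90aa1 peak, 4812 bp upstream of this heat shock protein gene, had 1.34 and 3.03 RPKM at P2, 89.4 and 64.2 at P10 and 24.7 and 29.1 at P28 (3.18 ± 0.58, adjusted p = 0.0011).

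In lists of general cell functions 2.33 to 13.3% of genes were higher, against a background of 9.84% higher and 2.21% lower. DNA replication had 1 of 19 genes higher, the cell cycle 2 of 21, RNA splicing 3 of 47, the proteasome and ubiquitin 1 of 43, chromatin regulators 4 of 57, DNA repair 3 of 38, autophagy and lysosome 3 of 38, vesicle trafficking 2 of 41, lipid and sterol metabolism 4 of 37 and the circadian clock 2 of 15, none of them with a lower gene. After centring each held at most 2 genes in either direction. The photoreceptor transcription factors had 2 of 14 genes higher and none lower, and 1 each after centring. Among families, solute carriers had 14 of 102 genes higher and 2 lower (6 and 2 after centring), Zfp zinc finger genes 16 of 160 and 3 (3 and 5), Tmem genes 10 of 78 and 1 (3 and 4), and ubiquitin ligases with F-box proteins 8 of 101 and none (1 and 3), so that the balance of the last 3 turned with the scale. Rab, Arf and Arl GTPases had 3 of 45 higher and none lower, channels 2 of 23 and 1, cadherins 2 of 13 and none, and initiation and elongation factors 2 of 31 and none. Of aminoacyl tRNA synthetases, Dars fell at an intronic peak (10.2 and 17.7 RPKM at P2, 0.465 and 1.47 at P28, -2.93 ± 0.53, adjusted p = 0.00091) and Aars2 rose at its promoter (0.666 and 0.336 at P2, 5.19 and 4.91 at P28, 2.02 ± 0.46, adjusted p = 0.0058).

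**Figure D5:**
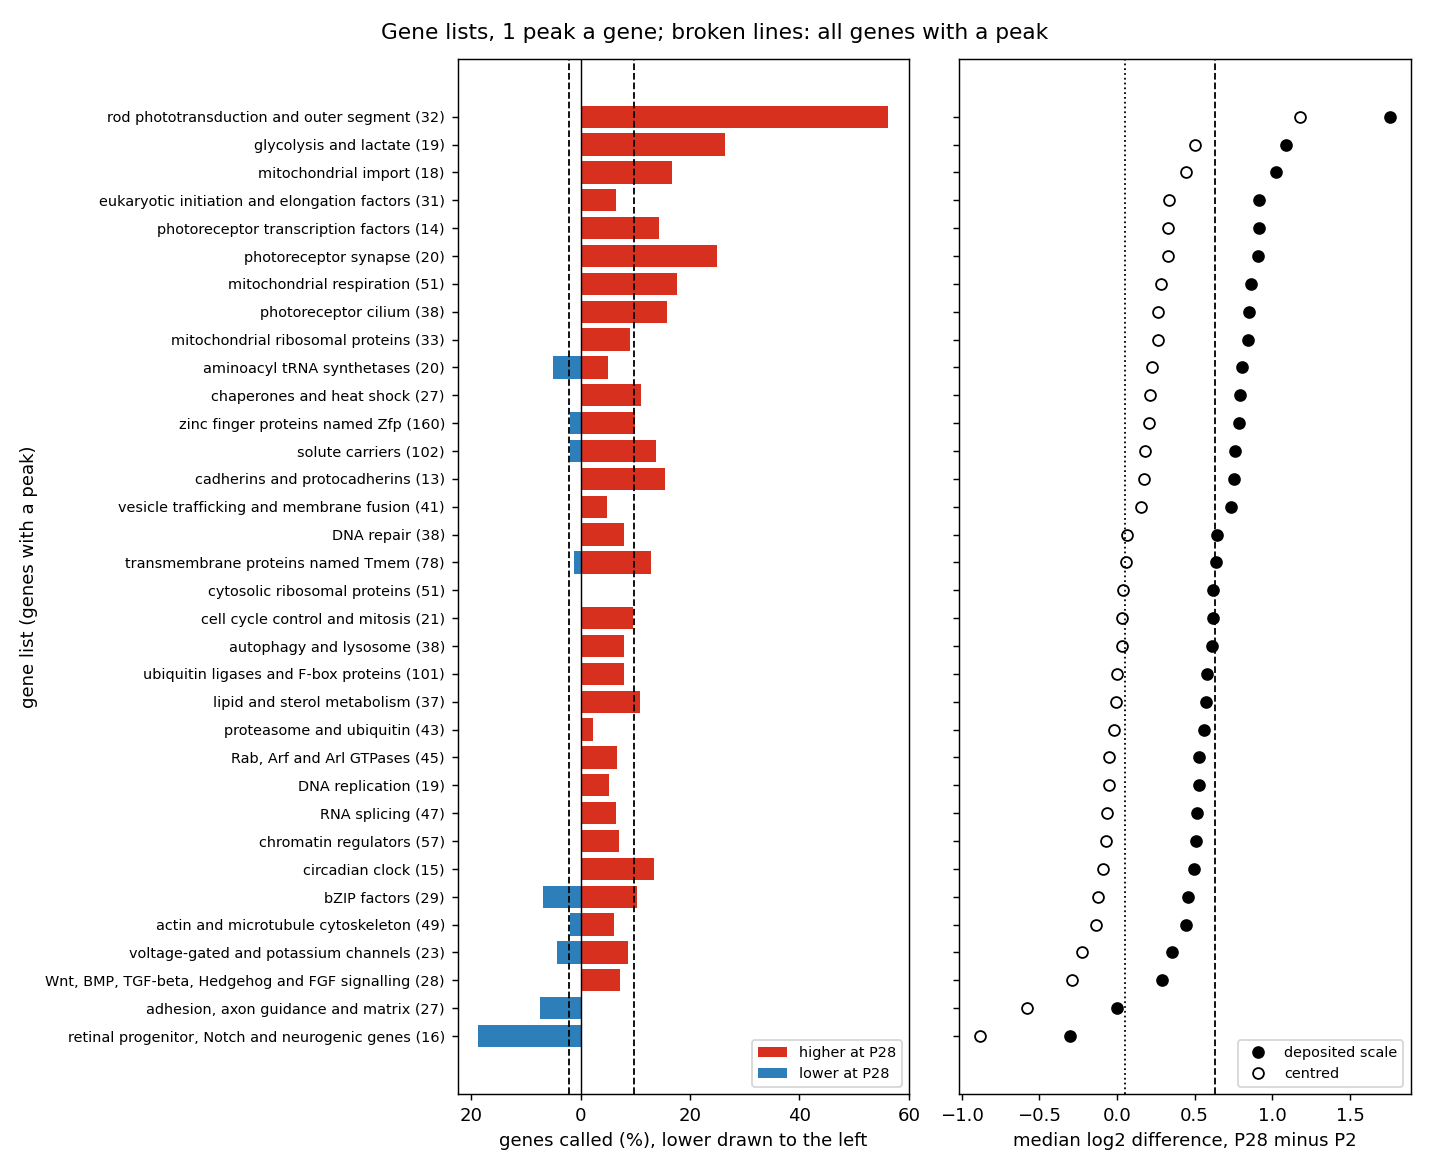
Left, the percent of genes of each list called higher (red) or lower (blue, drawn to the left) at P28 than P2, for the lists with at least 10 genes that had a peak (their number in brackets). Right, the median log2 difference of each list on the deposited scale (filled) and after centring (open). Broken and dotted lines give all 5978 genes. The rod list lies farthest to the right and the progenitor list farthest to the left on both scales.

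Lists of genes taken as markers of other cell types had few peaks. Of 7 cone genes with a peak, none was called. Of 5 genes of the bipolar list with a peak, Lrit3, a synaptic adhesion gene, was higher (1.74 and 0 RPKM at P2, 5.34 and 10.2 at P28, 2.35 ± 0.53, adjusted p = 0.0057). Irx6, a homeobox gene, was lower (6.21 and 4.02 at P2, 1.09 and 1.54 at P28, -1.39 ± 0.46, adjusted p = 0.048). Whether these genes mark bipolar cells alone was not tested. Lrit3 was lost after centring (adjusted p = 0.070) and without P2 replicate 4 (0.10), and Irx6 without any 1 of the 4 libraries. Of 4 amacrine, horizontal and ganglion cell markers none was called on the deposited scale, and 1, Th, was lower after centring. Müller glia (14 genes) and microglia with vessels (17 genes) had no gene with a peak within 50 kb, and of 11 pigment epithelium markers 1, Mitf, had one and was not called. These are binding sites near marker genes and do not measure the cells.

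Of the 123 peaks whose nearest gene is a microRNA, 11 were called (8.94%), a smaller share than the 12.6% of all peaks. The most changed of the lower ones lay in an intron 15048 bp from Mir138-1 (chr9:122667548-122667828), whose products are printed with the seed, bases 2 to 8, in capitals, as are the 5p product of Mir205 and the product of Mir378b, the most changed higher one.
miR-138-5p: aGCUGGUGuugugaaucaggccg
miR-138-1-3p: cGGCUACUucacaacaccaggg
miR-205-5p: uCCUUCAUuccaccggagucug
miR-378b: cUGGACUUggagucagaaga

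The Mir138-1 peak had 8.07 and 17.6 RPKM at P2, 11.3 and 24.4 at P4, then 20.7 and 24.0 at P10 and 1.10 and 0.583 at P28 (-2.83 ± 0.56, adjusted p = 0.0020), so it was low at P28 alone among the 4 ages. miR-138 is known for its expression in neurons. The Mir205 peak, 8975 bp upstream, had 8.71 and 10.5 RPKM at P2, 2.90 and 2.87 at P10 and 1.43 and 1.51 at P28 (-2.10 ± 0.52, adjusted p = 0.0097), and was lost without P2 replicate 4 or either P28 replicate (0.051 to 0.064). The Mir378b peak, 51567 bp away, had 2.09 and 3.16 RPKM at P2, 13.7 and 10.4 at P10 and 23.8 and 38.0 at P28 (3.12 ± 0.54, adjusted p = 0.00064). miR-205 is known from epithelia. Both P28 libraries lay outside the range of both P2 libraries in all 3 peaks, as they did in 5790 of all 8996 peaks.

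Single libraries decided many calls. Of the 270 lower peaks, 77 were called lower whichever of the 4 P2 and P28 libraries was left out, and of the 232 lower distal peaks 69 were (29.7%). Of the 867 higher peaks, 169 were. Reads were also simulated for the same 8996 peaks in all 8 libraries and fitted in the same way. Changes between P2 and P28 were placed at 200 peaks, drawn only from those with more reads. The other peaks had no shift between these ages, whereas the median peak of the data moved by 0.57. Of 50 changes each, the test recovered 0 of 2-fold, 7 of 4-fold, 35 of 8-fold and 45 of 16-fold. Among the peaks without a placed change, 5 were called. In this setting changes of 4-fold or less were rarely recovered, and peaks with few reads were not covered.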

How the data were processed

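Per the file headers and columns, the deposited table gave the authors' RPKM for each peak in 8 libraries, and the authors' peak lists per age gave a score and a signal value per peak, used here only for membership in a list. The submitters' processing notes name bedtools 2.29.0, MACS2 2.2.5, Bowtie2 2.3.5.1, Trimmomatic 0.38, Picard 2.20.8 and SAMtools 1.9, and the build GRCm38.p6 for mouse. No source used here says whether the spike-in set the scale.

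Every column but the first had been divided by widths shifted against the peaks, by 39 rows more at each further column. Reads rebuilt with those widths were whole within 0.001 for 100% of values, and RPKM was recomputed with each peak's own width. limma 3.58.1 (trend and robust, R 4.3.3) was fitted on log2(RPKM + 1) over the 8 libraries of P2, P4, P10 and P28, without a block, and p-values were adjusted over all 8996 peaks. It was tested on simulated reads.

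Named peaks were those with the largest differences among called peaks at or above the median signal of 3.10 RPKM, with ages that did not overlap and a protein-coding gene outside the rod lists. The members and lists were chosen with earlier results of these data known. Some genes that the rules take in are not reported here.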

Additional observations from a re-analysis of the deposited data

How the results depend on the processing

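Under each alternative to the fit on the deposited scale, lower calls stayed mostly distal, but their number moved. The 1137 calls and 232 lower distal peaks became 336 and 98 with a pseudocount of 0.1, and 404 and 104 with the values as deposited, undivided by their own widths. Lower distal peaks numbered 494 with libraries centred on the median and 460 with scaling by the reads in peaks. The P2 and P28 libraries left out in turn gave 604 to 1089 calls and 133 to 215 lower distal peaks, the fewest without P2 replicate 4. Leaving out P4 or P10 libraries gave 858 to 1650 calls and 188 to 305 lower distal peaks. These fits, and the alternatives to the centred fit, were chosen after seeing the data. The 947 centred calls became 406 with the values as deposited, 614 with a pseudocount of 0.1, and 536 to 949 with libraries left out, 536 and 585 without P28 replicates 3 and 4. Deviations of same-numbered libraries from the mean of their age correlated little (r -0.013 to 0.085). With so few reads per peak, a low r cannot decide whether the numbers pair libraries. With the replicate block the calls were 1110 over all 8 libraries and 1838 over the P2 and P28 libraries alone. Without it they were 1137 and 899. Lower distal peaks numbered 225 and 324 with the block and 232 and 194 without it. Of 114 named peaks, 62 were no longer called with the values as deposited, 57 with a pseudocount of 0.1, 35 after centring and 31 to 40 without single P2 or P28 libraries, and none changed direction. The difference between distal and promoter medians, -0.36, was -0.643 with the values as deposited and -0.196 with a pseudocount of 5. The cause of these shifts was not tested. With medians of 4 to 8 reads per peak, small changes were not detectable.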
